A study of Mus musculus with 6 samples.

Results

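Membrane solute carriers, the proteins that move amino acids, sugars, organic acids and bases, nucleosides, vitamins, metals and inorganic ions across membranes, were followed in the liver of mice overexpressing the transcription factor TFEB. They were chosen by name: probe sets annotated to exactly 1 gene whose symbol begins with Slc or Slco and a family number. The mitochondrial Slc25 family and 5 further genes (Slc4a1, Slc40a1, Slc10a1, Slc27a5 and Slco1b2) were left out. The rule took 362 of 22690 probe sets, which stand for 235 of the 12393 genes on the array. Every one of the 235 was tested, with no filter on dim genes.

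The groups were 3 wild-type livers and 3 transgenic livers, 1 array per mouse, all at postnatal day 9. The transgenic mice came from a cross of a conditional Tcfeb (now Tfeb) overexpressing line with a line that expresses Cre recombinase from the albumin promoter (Alb-Cre), so that overexpression was directed to the liver. The albumin promoter acts mainly in hepatocytes, and RNA was taken from whole liver, which at this age also holds bile duct, vessel, stellate, blood-forming and immune cells. The labels call the controls wild type and name no allele or Cre line for them. The arrays are called biological replicates, so p-values measure the spread between these animals.

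Solute carriers are grouped into families by sequence, and members of 1 family usually share a kind of substrate. In hepatocytes, carriers on the blood side take up amino acids, bile salts, drugs and urate, carriers on the bile side export organic cations and bicarbonate, and carriers of the lysosome membrane return the products of digestion to the cytosol. TFEB is known for binding an E-box, CACGTG, near the start of lysosomal and autophagy genes and raising their transcription.

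Because TFEB reads that E-box, it was searched for in the 250 bases before each annotated start, on both strands, in RefSeq promoters of build GRCm38.p6. Of the 235 carriers, 187 had a window in that table. CACGTG lay in 8.54% of their 246 windows, in 7.68% of the 12566 windows of all genes on the array and in 6.02% of the 32851 windows in the table. A match is a description of these letters and not a binding site. Among the carriers with a window, 4 of 25 that were higher in transgenic liver (12.5% of 32 windows) and 6 of 53 that were lower (7.41% of 81 windows) held the E-box. The full CLEAR element, a longer motif around the E-box, lay in 0 of the 246 carrier windows and in 0.39% of array windows. The ARE, a motif bound by NRF2, lay in 12.6% of carrier windows and 11.3% of array windows. It lay in 6.25% of windows of higher carriers and 19.8% of windows of lower carriers. Motifs of ATF4, HNF1 and HNF4A lay in 2.85%, 1.22% and 0.813% of carrier windows and 2.32%, 0.31% and 0.485% of array windows. Differences between these shares were not tested. The promoters of all 4 higher holders of the E-box and of its 3 lower holders with the largest changes are given here. Each is the 250 bases before 1 annotated start on the gene's own strand, with CACGTG in capitals. Where a gene had several windows, the one with most E-boxes was taken. Slc29a1 had 8 windows and Slc20a1, Slc37a3 and Slc39a8 had 2 each, and in these genes only the window shown held the E-box. The higher holders are Slc20a1 (phosphate uptake; chr2:129198523-129198772, plus strand), Slc37a3 (chr6:39377708-39377957, minus strand), Slc22a4 (ergothioneine and organic cations; chr11:54028105-54028354, minus strand) and Slc38a5 (glutamine and other neutral amino acids; chrX:8271131-8271380, plus strand).
Slc20a1: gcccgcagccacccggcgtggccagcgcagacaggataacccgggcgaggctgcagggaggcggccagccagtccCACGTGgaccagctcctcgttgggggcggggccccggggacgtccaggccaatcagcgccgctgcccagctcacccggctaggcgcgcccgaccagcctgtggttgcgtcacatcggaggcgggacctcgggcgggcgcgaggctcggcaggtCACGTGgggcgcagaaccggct
Slc37a3: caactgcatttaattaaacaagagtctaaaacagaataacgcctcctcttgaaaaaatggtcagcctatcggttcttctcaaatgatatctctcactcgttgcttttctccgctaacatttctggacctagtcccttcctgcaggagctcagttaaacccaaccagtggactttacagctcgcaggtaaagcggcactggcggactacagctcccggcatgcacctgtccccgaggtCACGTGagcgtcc
Slc22a4: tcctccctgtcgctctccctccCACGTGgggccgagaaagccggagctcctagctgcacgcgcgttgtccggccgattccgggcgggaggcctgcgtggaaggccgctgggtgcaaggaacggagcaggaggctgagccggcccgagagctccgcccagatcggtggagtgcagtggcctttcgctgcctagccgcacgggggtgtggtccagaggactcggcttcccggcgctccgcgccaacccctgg
Slc38a5: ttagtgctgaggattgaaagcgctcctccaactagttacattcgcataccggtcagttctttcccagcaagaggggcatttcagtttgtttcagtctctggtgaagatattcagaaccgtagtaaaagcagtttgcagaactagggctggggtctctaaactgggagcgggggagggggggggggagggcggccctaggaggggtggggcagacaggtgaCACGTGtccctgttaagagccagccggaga
The lower holders are Slc13a3 (dicarboxylates; chr2:165473198-165473447, minus strand), Slc39a8 (zinc, manganese and iron; chr3:135825407-135825656, plus strand) and Slc29a1 (nucleosides; chr17:45595247-45595496, minus strand).
Slc13a3: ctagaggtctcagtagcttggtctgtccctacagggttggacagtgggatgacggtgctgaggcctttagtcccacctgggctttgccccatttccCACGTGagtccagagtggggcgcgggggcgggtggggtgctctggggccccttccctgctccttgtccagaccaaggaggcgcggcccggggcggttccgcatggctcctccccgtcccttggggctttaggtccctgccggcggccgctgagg
Slc39a8: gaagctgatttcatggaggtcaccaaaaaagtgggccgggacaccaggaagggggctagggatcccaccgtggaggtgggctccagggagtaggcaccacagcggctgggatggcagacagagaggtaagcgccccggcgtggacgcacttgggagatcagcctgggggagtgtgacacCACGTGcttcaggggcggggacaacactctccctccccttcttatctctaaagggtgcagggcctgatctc
Slc29a1: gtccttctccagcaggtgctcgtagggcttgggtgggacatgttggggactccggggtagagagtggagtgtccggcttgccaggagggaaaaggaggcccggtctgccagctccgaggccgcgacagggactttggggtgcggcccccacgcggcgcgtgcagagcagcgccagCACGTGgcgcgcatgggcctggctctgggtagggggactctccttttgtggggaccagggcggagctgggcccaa

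The Slc20a1 window holds the E-box at 2 places, with first bases at -175 and -22 from the start. In the other promoters shown, the first base lies at -13 for Slc37a3, -228 for Slc22a4, -30 for Slc38a5, -154 for Slc13a3, -71 for Slc39a8 and -75 for Slc29a1. E-boxes were thus present both in carriers that rose and in carriers that fell, and 11 of the 21 genes holding one did not pass the test.

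Values are log2 expression on the scale the authors deposited. A positive difference means a higher value in transgenic liver, and SE is the standard error that limma gives for it. Genes are called higher or lower where the adjusted p is under 0.05. On this scale, 40.3% of all genes were called, 19.9% higher and 20.4% lower. Tfeb itself read 6.71 ± 0.18 (SD, n = 3) in wild type and 6.50 ± 0.13 (SD, n = 3) in transgenic liver and was not called (adjusted p = 0.168). Its single probe set may lie outside what the transgene carries, which the labels do not describe, so it does not check the groups. The bacterial hybridisation controls read lower on the transgenic arrays. Scaling the arrays to them moved the median difference of all genes from -0.04 to 0.34, so the counts of marker, class and pathway lists are given on the deposited scale first and after that scaling second. Hepatocyte markers were bright throughout, with albumin (Alb) at 14.84 to 14.90 on all 6 arrays, yet 7 of 9 hepatocyte markers were lower (4 lower and 2 higher after the bacterial scaling). Of the markers of other cells, 7 of 8 granulocyte genes were lower on both scales, and 7 of 7 lymphoid genes were lower (5 after the scaling). Of 8 stellate markers 3 were lower and 0 higher (2 and 3 after the scaling), and of 8 endothelial markers 5 were lower and 1 higher (0 and 3). Of 7 red cell precursor markers 5 were higher (6 after the scaling), and of 8 bile duct markers 4 were higher and 1 lower on both scales. Of 7 macrophage markers 2 were lower and 0 higher (0 and 2 after the scaling). On the deposited scale the macrophage count was 0 without wild type 2, wild type 3 or transgenic 2, 1 without transgenic 1 and 4 without wild type 1 or transgenic 3. In whole liver, fewer cells of a type and less RNA per cell cannot be told apart. The X-inactivation transcript Xist read 5.58 on the first transgenic array and 13.03 to 13.19 on the others, so that animal was male and the others female by this gene.

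Among the 235 carriers, 37 were higher (15.7%) and 64 lower (27.2%) in transgenic liver, against the 19.9% and 20.4% of all genes given above. After scaling to the bacterial controls the counts turned to 100 higher (42.6%) and 23 lower (9.79%), where 56.5% of all genes were higher and 5.11% lower. These shares of all genes are the ones to set beside each class, family and list count below. The median difference over all carriers was -0.11, beside -0.04 over all genes, and 0.27 beside 0.34 after that scaling. A called change of at least 2-fold was seen downward in 13 carriers and upward in 4, where 2.65% of all genes fell and 2.53% rose that far (5.18% in all). Those 13 were all still lower after the bacterial scaling. In 126 carriers no transgenic value overlapped the wild-type values, 42 with transgenic above and 84 below, where 53.7% of all genes were apart, 25.6% above and 28.1% below. Genes named below as the largest rises or falls of a class had to be apart. For them, apart groups are no further support. Of the 101 called carriers, 44 kept the call under each alternative that measured them, and 70 under each such alternative other than the bacterial scaling. Probe set and brightness filters left some carriers unmeasured.

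**Figure D1:**
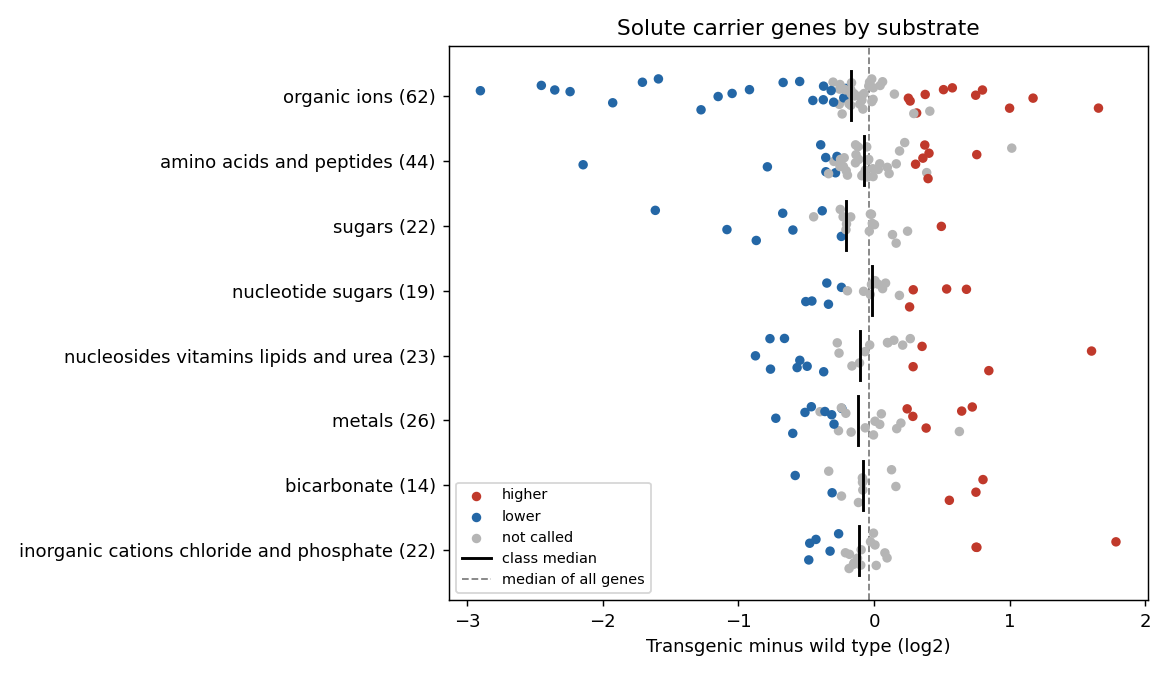
Each point is 1 solute carrier gene, placed by its difference between transgenic and wild-type liver (log2, deposited scale) and grouped by substrate with the number of genes in brackets; red is called higher, blue called lower and grey not called, black bars are class medians and the dashed line is the median of all genes. The points reach furthest left in organic ions, down to -2.90; the 3 genes whose products are not carriers are not drawn, and the class medians, all below 0.00 here, are all above it after scaling to bacterial controls.

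Organic ion carriers, 62 genes for organic anions and cations, monocarboxylates, dicarboxylates, creatine, taurine, betaine and choline, held most of the large changes. On the deposited scale 20 fell (32.3%) and 11 rose (17.7%), beside 20.4% and 19.9% of all genes. After the bacterial scaling 12 were lower and 22 higher. Of the 13 carriers with at least a 2-fold fall, 10 belong here. The median difference of the class was -0.17, and 0.21 after that scaling.

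Slc22a7, the organic anion transporter OAT2 of the hepatocyte's blood side, fell most of all carriers. It read 10.36, 10.34 and 9.998 in wild type and 7.29, 7.33 and 7.37 in transgenic liver, a 7.47-fold fall (difference -2.90, SE 0.10, adjusted p = 3.16e-06). All 3 transgenic values lay far below the lowest wild-type value. The rodent organic anion transporters Slc22a29 and Slc22a27 followed. Slc22a29 read 8.62, 8.74 and 8.48 against 5.91, 6.19 and 6.38 (5.47-fold lower, difference -2.45, SE 0.13, adjusted p = 1.37e-05). Slc22a27 read 9.40, 9.57 and 9.37 against 7.25, 7.16 and 7.21 (4.72-fold lower, difference -2.24, SE 0.08, adjusted p = 2.58e-06). In both genes the highest transgenic value lay far below the lowest wild-type value. Their relatives Slc22a30 (difference -1.15, SE 0.14) and Slc22a26 (difference -0.92, SE 0.12) were lower as well, at adjusted p = 0.000588 and 0.000918. Without the male animal, transgenic 1, the differences were -2.88 for Slc22a7, -2.33 for Slc22a29, -2.26 for Slc22a27, -1.27 for Slc22a30 and -1.01 for Slc22a26.

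These relatives lie side by side on chromosome 19, in the order Slc22a19, Slc22a26, Slc22a27, Slc22a28, Slc22a29, Slc22a30, Slc22a8 and Slc22a6 in the RefSeq table. Of the 7 measured genes of this run, 5 were called lower and Slc22a19 and Slc22a6, the classical kidney transporter OAT1, were not. After the bacterial scaling 4 of the 7 stayed lower. Slc22a26 to Slc22a30 are near copies of each other, so probes can bind RNA of more than 1 of them, and which copy fell is uncertain. Some probe sets end in _s_at, _x_at or _a_at, for matches to more than 1 transcript or gene. Without them 5 genes of the run were measured and 3 were lower. Slc22a27 and Slc22a29, the largest falls of the run, were not measured there, and neither was Slc22a7. Elsewhere in the family the carnitine transporter Slc22a5 rose by 0.38 (SE 0.09, adjusted p = 0.0147) and its neighbour on chromosome 11, Slc22a4, rose by 0.31 (SE 0.07, adjusted p = 0.0133). The Slc22a5 call was lost without transgenic 3 (adjusted p = 0.0537) and with the mean of its 2 probe sets (difference 0.12). Over all 18 Slc22 genes 7 were lower and 2 higher (5 and 3 after the bacterial scaling). The count of 2 became 1 without transgenic 3.

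**Figure D2:**
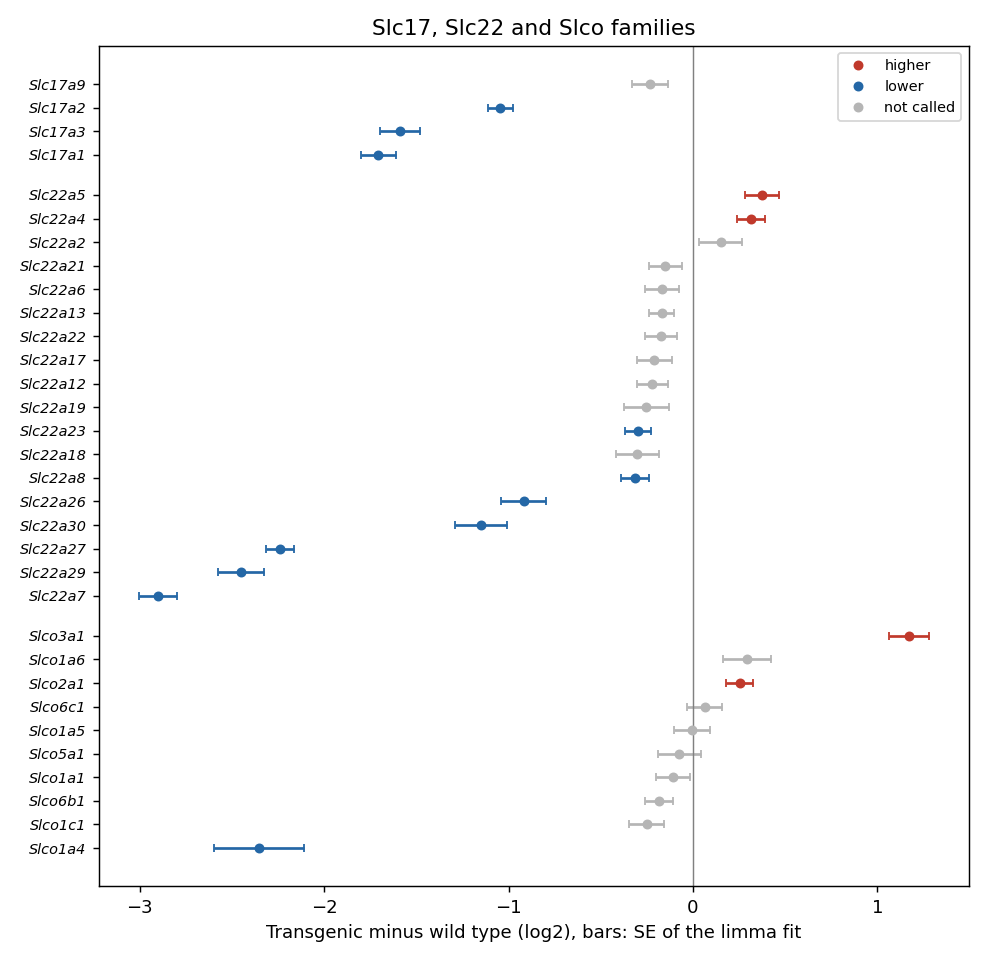
Differences between transgenic and wild-type liver (log2, deposited scale, 3 arrays per group) for the measured organic ion members of the Slc17, Slc22 and Slco families, with bars for the SE of the limma fit; red is called higher, blue lower and grey not called. Slc22a7, Slc22a29, Slco1a4 and Slc22a27 lie furthest left, from -2.90 to -2.24, and they, Slc22a30, Slc22a26, Slc17a1, Slc17a3 and Slc17a2 were also lower after scaling to bacterial controls.

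Slco1a4, an organic anion transporting polypeptide that takes up bile salts, steroid conjugates and drugs, fell 5.11-fold. It read 9.85, 8.89 and 8.91 in wild type and 7.05, 6.82 and 6.73 in transgenic liver (difference -2.35, SE 0.25, adjusted p = 0.000292). Wild type 1 was the highest value, and all wild-type values lay above all transgenic ones. Its neighbour on chromosome 6 and close relative Slco1a1 read 4.19, 4.18 and 4.38 against 4.25, 4.18 and 3.99 and was not called (difference -0.11, adjusted p = 0.381). Slco1a1 was among the dimmest 40% of genes, where a fall may not show. Slco3a1, a widely expressed member that exports bile salts and carries prostaglandins and thyroxine, went the other way. It read 6.49, 6.19 and 6.23 against 7.59, 7.52 and 7.32 (2.25-fold higher, difference 1.17, SE 0.11, adjusted p = 0.000163). All 3 of its probe sets were called higher, by 0.56 to 1.17. Of the 10 Slco genes, 2 were higher and 1 lower (5 and 1 after the bacterial scaling). The second higher gene, the prostaglandin carrier Slco2a1, rose by 0.25 (adjusted p = 0.0292) and lost its call without wild type 2 (0.0681), wild type 3 (0.0836), transgenic 1 (0.0875) or transgenic 3 (0.0897) and under quantile normalization, median centring and cyclic loess.

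The Slc17 phosphate and urate transporters fell together on either scale. Slc17a1, which exports urate at the cell surface, read 8.14, 7.95 and 7.85 in wild type and 6.23, 6.21 and 6.38 in transgenic liver (3.27-fold lower, difference -1.71, SE 0.10, adjusted p = 1.73e-05). Slc17a3, an organic anion and urate exporter, read 11.30, 11.15 and 11.15 against 9.80, 9.40 and 9.63 (3.01-fold lower, difference -1.59, SE 0.11, adjusted p = 4.18e-05). Slc17a2 read 12.12, 12.08 and 12.14 against 10.99, 11.08 and 11.13 (2.06-fold lower, difference -1.05, SE 0.07, adjusted p = 3.3e-05). No transgenic value of these 3 genes reached a wild-type value, and all 3 were still lower after the bacterial scaling. They are neighbours and related copies on chromosome 13, and probes may bind more than 1 of them. The vesicular nucleotide transporter Slc17a9 was not called, apart from a fall of 0.33 without wild type 3 (adjusted p = 0.0257).

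Slc13a3, the sodium-dependent carrier of succinate and other dicarboxylates whose E-box is shown above, fell 3.80-fold. It read 11.51, 11.62 and 11.80 against 9.92, 9.44 and 9.80 (difference -1.93, SE 0.14, adjusted p = 4.76e-05). Of its 4 probe sets 3 were called lower and the brightest gave the values here. The exporter Slc47a1 (MATE1), which passes organic cations into bile, fell by 0.67 (SE 0.08, adjusted p = 0.000544), and stayed lower after the bacterial scaling (-0.29).

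Carriers of small osmolytes and energy metabolites moved in opposite directions. Slc6a8, the creatine transporter, read 7.87, 7.68 and 7.66 in wild type and 9.36, 9.43 and 9.38 in transgenic liver (3.15-fold higher, difference 1.65, SE 0.08, adjusted p = 1.02e-05). Slc6a6, the taurine transporter, read 8.75, 8.97 and 8.72 against 9.43, 9.72 and 9.69 (1.74-fold higher, difference 0.80, SE 0.11, adjusted p = 0.000915). Both genes had all transgenic values above all wild-type values, as the naming rule required. The Slc6a6 result rests on 1 of 3 probe sets, and the others differed by -0.05 and -0.03. Without probe sets ending in _s_at, _x_at or _a_at the gene was not called (difference -0.05). In contrast Slc6a12, which takes up betaine, read 9.10, 8.59 and 8.58 against 7.26, 7.53 and 7.66 (2.42-fold lower, difference -1.28, SE 0.16, adjusted p = 0.000717). Its neighbour on chromosome 6, Slc6a13, a liver carrier of taurine and GABA, fell by 0.55 (SE 0.09, adjusted p = 0.00257), and was not called after the bacterial scaling.

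Monocarboxylate carriers of family 16, which move lactate, pyruvate and ketone bodies, also split. Slc16a7 (MCT2) read 10.66, 10.65 and 10.46 in wild type and 11.50, 11.63 and 11.62 in transgenic liver (2.00-fold higher and just under the 2-fold mark, difference 1.00, SE 0.08, adjusted p = 9e-05). Slc16a6, a ketone body exporter, rose by 0.75 (SE 0.11, adjusted p = 0.00158). Slc16a1 (MCT1), a lactate and pyruvate carrier, read 12.13, 12.34 and 12.38 against 11.996, 11.71 and 11.78 and fell by 0.45 (SE 0.10, adjusted p = 0.0101), a call lost after the bacterial scaling. Over the 7 family 16 genes 3 were lower and 2 higher, and 0 and 3 after that scaling. The partner proteins that carry these transporters to the surface, Bsg (difference -0.24, adjusted p = 0.225) and Emb (difference -0.01, adjusted p = 0.948), were not called. Among the choline transporter-like family, Slc44a3 rose by 0.58 (SE 0.07, adjusted p = 0.000812) and Slc44a1 fell by 0.37 (SE 0.08, adjusted p = 0.00964), the latter at 0.005 and not called after the bacterial scaling.

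**Figure D3:**
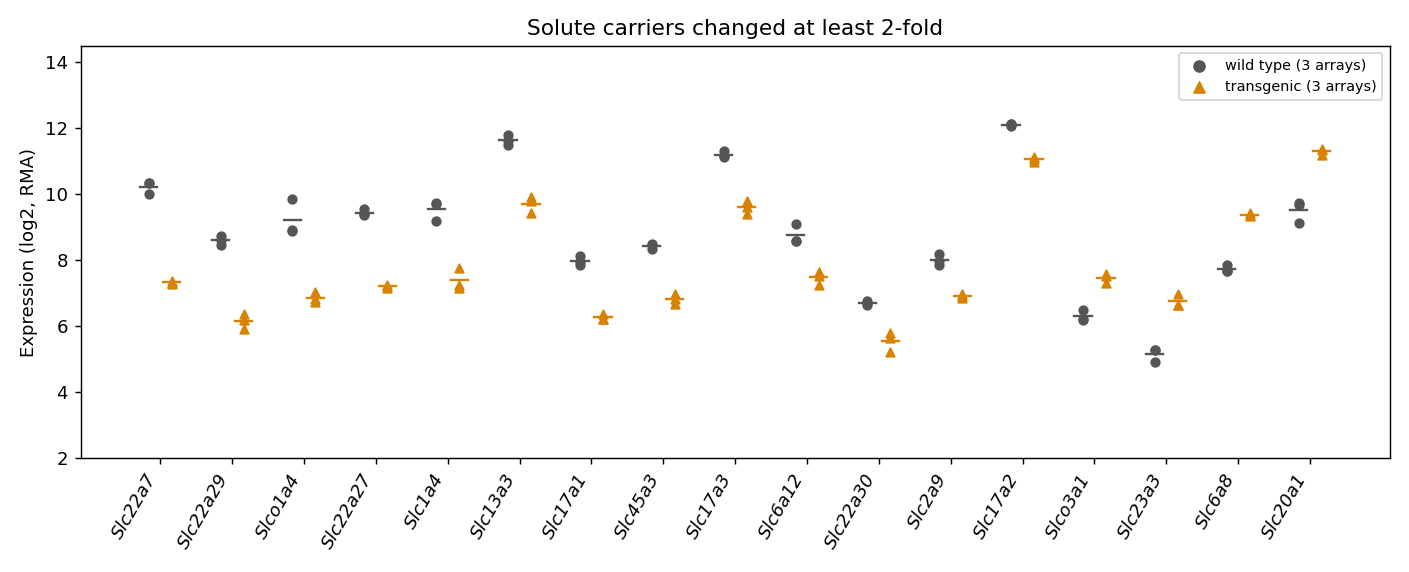
Log2 expression on each of the 6 arrays for the 17 carriers called with a change of at least 2-fold, ordered by difference; grey circles are wild-type and orange triangles transgenic arrays, and short lines are group means (n = 3). The groups do not overlap in any of them, with Slc22a7 at the left falling by 2.90 and Slc20a1 at the right rising by 1.78.

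The nuclear receptors and factors known to set the expression of drug and anion carriers in hepatocytes were examined beside them. Of 9 measured, 6 were lower and 1 higher (2 lower and 1 higher after the bacterial scaling). Nr1i3 (CAR) read 9.41, 9.53 and 9.44 in wild type and 7.44, 7.35 and 7.33 in transgenic liver (difference -2.08, SE 0.07, adjusted p = 2.07e-06). Ppara fell by 1.09 (SE 0.08, adjusted p = 7.5e-05). Nfe2l2 (NRF2) rose by 0.43 (SE 0.07, adjusted p = 0.00317). Beside the falls of hepatocyte carriers, the summed level of the 9 measured hepatocyte markers, the log2 of the sum of their linear values, was 17.12 on the wild-type and 16.83 on the transgenic arrays. Alb and Ttr were not called. The part of hepatocyte content in these falls was not tested.

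Amino acid and peptide carriers comprised 44 genes. On the deposited scale 7 fell (15.9%) and 6 rose (13.6%), beside 20.4% and 19.9% of all genes. After the bacterial scaling 2 were lower and 20 higher. The count of 6 became 3 without transgenic 2. A single member was called with a change of at least 2-fold. Slc1a4 (ASCT1), which exchanges alanine, serine and cysteine, read 9.19, 9.71 and 9.74 in wild type and 7.76, 7.27 and 7.17 in transgenic liver (4.42-fold lower, difference -2.14, SE 0.19, adjusted p = 0.000147). Its 3 probe sets were all called lower, by -1.22 to -2.24. Wild type 1 was the lowest of its group and transgenic 1 the highest, and the groups stayed apart. The relative Slc1a5 (ASCT2), which takes up glutamine, went the other way.

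Slc1a5 read 6.68, 6.76 and 6.72 against 7.14, 7.32 and 6.91 (difference 0.41, SE 0.11, adjusted p = 0.019). That call was lost without transgenic 1 (adjusted p = 0.0532) or transgenic 2 (0.0533). Slc38a3 (SNAT3), the glutamine carrier of the hepatocyte membrane, read 11.49, 11.31 and 11.34 against 10.45, 10.72 and 10.60 (1.72-fold lower, difference -0.79, SE 0.09, adjusted p = 0.000461). This fall held after the bacterial scaling (-0.41). Slc38a4 (SNAT4), a neutral and cationic amino acid carrier, fell by 0.35 (SE 0.08, adjusted p = 0.0107), and after that scaling its difference was 0.02. Slc38a2 (SNAT2), a carrier known to be raised by amino acid shortage, read 10.42, 10.44 and 10.29 against 9.98, 10.38 and 10.40 and was not called. Slc38a5 read 5.50, 5.49 and 5.57 against 6.06, 5.86 and 5.76 (difference 0.37, SE 0.09, adjusted p = 0.0128). Red cell precursors are known to express Slc38a5, and the summed level of their 7 measured markers, 5 of them called higher, was 9.53 to 9.77 on wild-type and 9.92 to 10.02 on transgenic arrays. Their part in this rise was not tested.

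**Figure D4:**
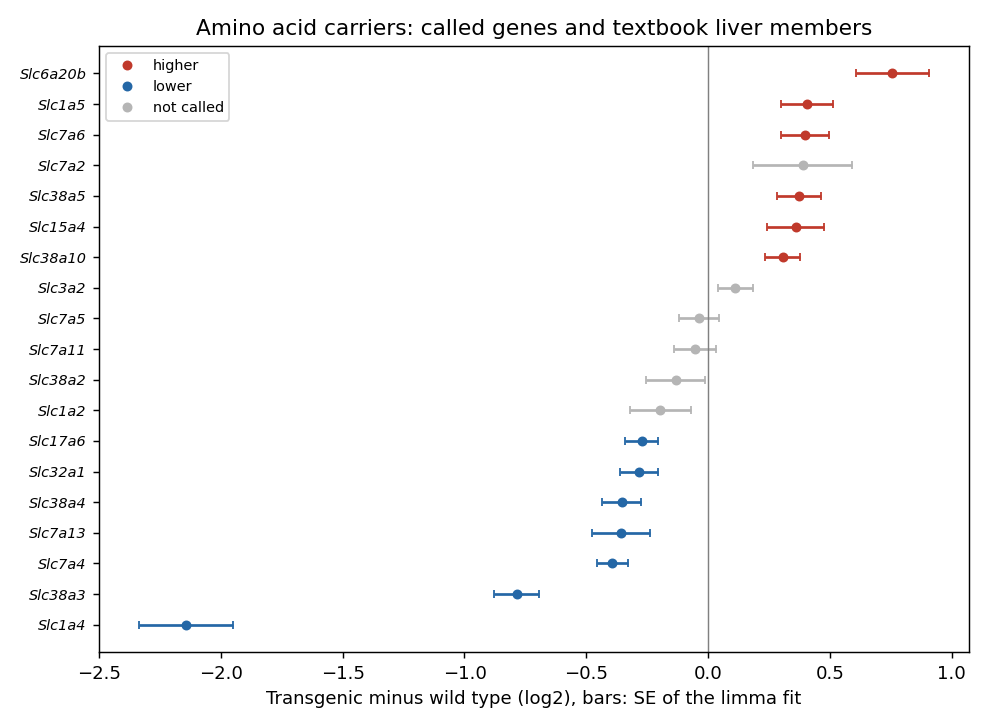
Differences between transgenic and wild-type liver (log2, deposited scale, 3 arrays per group) for amino acid and peptide carriers that were called or belong to the list of textbook liver carriers, with bars for the SE of the limma fit; red is called higher, blue lower and grey not called. Slc1a4 at -2.14 and Slc38a3 at -0.79 stand apart at the bottom and are the 2 genes of this class still lower after scaling to bacterial controls.

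Several family 7 carriers work only as light chains joined to a heavy chain, Slc3a2 or Slc3a1. Slc3a2 read 8.999, 8.82 and 8.85 against 8.98, 9.01 and 9.02 and was not called (adjusted p = 0.247), and Slc3a1 differed by -0.06. The light chains Slc7a5 (LAT1, large neutral amino acids; difference -0.04, adjusted p = 0.725) and Slc7a11 (cystine for glutathione synthesis; difference -0.05, adjusted p = 0.639) were not called. After the bacterial scaling Slc3a2, Slc7a5 and Slc7a11 were all called higher, at 0.49, 0.34 and 0.33. Slc7a6 (y+LAT2) read 5.24, 5.19 and 5.36 against 5.50, 5.83 and 5.67 and rose by 0.40 (SE 0.10, adjusted p = 0.0151), a call lost without wild type 2 (0.0537). Slc7a13 fell by 0.36 (adjusted p = 0.0464) and lost its call without wild type 1 (0.0563), wild type 2 (0.121), wild type 3 (0.105), transgenic 1 (0.0822) or transgenic 3 (0.0995). Slc7a4, a family member with no known substrate, fell by 0.39 (SE 0.06, adjusted p = 0.00237), called on neither side after the bacterial scaling. Slc7a9, the partner of Slc3a1, differed by 1.01 (SE 0.57, adjusted p = 0.187): wild type 1 read 6.80 where wild type 2 and 3 read 4.74 and 4.34, and the transgenic arrays read 6.03, 6.38 and 6.51. The groups therefore overlapped through wild type 1. Without that array the difference was 1.77 and was called (adjusted p = 0.000409), and after the bacterial scaling, with all arrays, it was 1.39 and called (adjusted p = 0.02).

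Slc7a2, the arginine carrier of the hepatocyte, depended on the probe set. The brightest read 7.41, 7.64 and 7.59 against 7.82, 7.56 and 8.43 and was not called (difference 0.39, adjusted p = 0.161). The other 2 probe sets were called higher when every probe set was fitted on its own, by 0.59 (adjusted p = 0.0206) and 0.71 (adjusted p = 0.0107). With the mean of the 3 the gene was called higher (0.56, adjusted p = 0.0312). Slc6a20b read 4.41, 4.99 and 4.51 against 5.27, 5.41 and 5.50 (difference 0.76, SE 0.15, adjusted p = 0.00593). Its neighbour and relative on chromosome 9, Slc6a20a, differed by 0.16 and was not called. The carrier chaperone Cltrn (collectrin) read 4.23, 4.53 and 4.93 against 6.80, 7.32 and 6.99 (difference 2.47, SE 0.19, adjusted p = 7.42e-05). The groups were apart in Slc6a20b and Cltrn, which the naming rule required of Slc6a20b. Of 8 chaperones and scaffolds of carriers, 2 were higher and 1 lower (5 and 0 after the bacterial scaling). The second higher gene was radixin (Rdx, 0.25), whose call was lost without wild type 1 (0.0521), wild type 3 (0.0715), transgenic 2 (0.0867) or transgenic 3 (0.0765). The lower gene was the scaffold Pdzk1, with a difference of -0.48 (SE 0.08, adjusted p = 0.00229).

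Genes of glutamine and glutathione metabolism and of the amino acid response were read beside the carriers. Of 18 measured, 7 were higher and 4 lower (12 and 2 after the bacterial scaling). Gpt2, the mitochondrial alanine aminotransferase, rose by 2.49 (SE 0.10, adjusted p = 7.87e-06) and Trib3, a stress-response gene, rose by 2.07 (SE 0.15, adjusted p = 6.02e-05). Cth, which makes cysteine, fell by 1.29 (SE 0.17, adjusted p = 0.000879). The cytosolic aminotransferase Gpt fell by 0.66 (adjusted p = 0.0466), a call lost without transgenic 1 (0.108), transgenic 2 (0.104) or transgenic 3 (0.0965).

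Sugar carriers, 22 genes mainly of the Slc2, Slc5, Slc37 and Slc45 families, were lower more often than higher on the deposited scale. There 7 fell (31.8%) and 1 rose (4.5%), beside 20.4% and 19.9% of all genes, while after the bacterial scaling 4 were lower and 6 higher. Slc45a3, of a family known for sucrose transport, read 8.36, 8.49 and 8.47 in wild type and 6.82, 6.69 and 6.97 in transgenic liver (3.06-fold lower, difference -1.61, SE 0.09, adjusted p = 1.6e-05). Slc2a9 (GLUT9), which takes up urate in the liver, read 8.19, 7.98 and 7.85 against 6.87, 6.91 and 6.99 (2.12-fold lower, difference -1.08, SE 0.10, adjusted p = 0.000138). Slc37a4, which feeds glucose 6-phosphate to the phosphatase of the endoplasmic reticulum, read 10.75, 10.79 and 10.63 against 9.997, 9.72 and 9.84 (1.82-fold lower, difference -0.87, SE 0.09, adjusted p = 0.000273). In each of these 3 genes the groups were apart, as the naming rule required, and each stayed lower after the bacterial scaling.

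Slc2a2 (GLUT2), the main glucose carrier of hepatocytes, changed little. It read 12.55, 12.56 and 12.50 against 12.25, 12.31 and 12.33 (1.18-fold lower, difference -0.24, SE 0.06, adjusted p = 0.0187), lost its call without wild type 2 (0.0589), transgenic 1 (0.0588) or transgenic 2 (0.0526), and differed by 0.14 after the bacterial scaling. Slc2a1 (GLUT1) read 8.20, 8.95 and 8.93 against 9.39, 8.59 and 8.59 and was not called (adjusted p = 0.652). The first array of each group was the one apart in Slc2a1, low in wild type and high in transgenic. The fructose carrier Slc2a5 fell by 0.60 (SE 0.12, adjusted p = 0.00556). The intracellular Slc2a8 fell by 0.38 (SE 0.06, adjusted p = 0.00239). Neither was called after the bacterial scaling. Over the 8 Slc2 genes 4 were lower and 0 higher, against 1 and 1 after that scaling. The renal glucose carrier Slc5a2 fell by 0.67 (SE 0.07, adjusted p = 0.000315) and stayed lower after that scaling. Its second probe set differed by -0.18 and was not called.

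Slc37a3, whose E-box lies at -13, was the gene of this class that rose. It was placed among the sugar carriers by its family number and need not carry a sugar. It read 7.81, 7.81 and 7.75 against 8.13, 8.37 and 8.35 (difference 0.50, SE 0.08, adjusted p = 0.00256). Without probe sets ending in _s_at, _x_at or _a_at the remaining probe set differed by 0.18 and was not called (adjusted p = 0.0724). Without wild type 3 the count of higher genes in the class was 2. Of 11 measured genes of glucose and fructose handling, 5 were lower and 1 higher (3 and 4 after the bacterial scaling). Khk, which starts fructose breakdown, fell by 2.44 (SE 0.11, adjusted p = 9.78e-06) and G6pc, the phosphatase served by Slc37a4, fell by 0.84 (SE 0.08, adjusted p = 0.000139). Txnip, a brake on glucose uptake, rose by 0.44 (adjusted p = 0.0387), a call lost without wild type 1 (0.0962), wild type 2 (0.0501), wild type 3 (0.0846), transgenic 1 (0.0681) or transgenic 3 (0.0568), which left 0 higher.

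Nucleotide sugar carriers supply the Golgi and endoplasmic reticulum with substrates for glycosylation. The class was set by family number, and members such as Slc35f5 and Slc35e4 need not carry a nucleotide sugar. Of 19 genes, Slc35 with the acetyl-CoA carrier Slc33a1, 5 were lower (26.3%) and 4 higher (21.05%), beside 20.4% and 19.9% of all genes. After the bacterial scaling these counts were 0 and 12. The higher count became 2 without transgenic 2, and the lower count became 3 without wild type 2, wild type 3 or transgenic 2. Slc35f5 read 9.81, 10.13 and 9.83 against 10.61, 10.64 and 10.57 (1.60-fold higher, difference 0.68, SE 0.10, adjusted p = 0.00127). Slc35a2, the UDP-galactose carrier, rose by 0.54 (SE 0.11, adjusted p = 0.00635), a value of 1 of 4 probe sets, and the mean of the 4 was not called (0.17, adjusted p = 0.0978). Slc35d1, which carries UDP-glucuronic acid, fell by 0.50 (SE 0.08, adjusted p = 0.0018) and Slc35a1, the CMP-sialic acid carrier, fell by 0.46 (SE 0.07, adjusted p = 0.00208). Smaller calls were lost when arrays were left out. The GDP-fucose carrier Slc35c1 (0.29) lost its call without wild type 2 (0.0559) or transgenic 2 (0.0554). Slc35a4 (0.26) lost it without wild type 1 (0.0644), wild type 3 (0.0742), transgenic 1 (0.0839) or transgenic 2 (0.0873). Slc33a1 (-0.35) lost it without wild type 2 (0.0902), wild type 3 (0.0705) or transgenic 2 (0.0813).

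Carriers of nucleosides, vitamins, lipids and urea, 23 genes, held 8 lower (34.8%) and 4 higher members (17.4%), beside 20.4% and 19.9% of all genes. After the bacterial scaling these counts were 4 and 11. Slc23a3, an orphan relative of the vitamin C carriers, read 4.92, 5.28 and 5.27 in wild type and 6.65, 6.98 and 6.65 in transgenic liver (3.04-fold higher, difference 1.60, SE 0.13, adjusted p = 9.21e-05). Slc23a3 was among the dimmest 40% of genes. The vitamin C carriers proper went the other way. Slc23a2 read 9.48, 9.46 and 9.37 against 8.36, 8.69 and 8.96 (1.70-fold lower, difference -0.77, SE 0.14, adjusted p = 0.0042). Slc23a1 fell by 0.57 (SE 0.10, adjusted p = 0.00333), a call lost after the bacterial scaling, where Slc23a2 stayed lower. A second probe set of Slc23a2 differed by -0.08 and was not called.

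The nucleoside transporters of family 29 did not move as 1 group. Slc29a2 (ENT2) read 4.57, 4.71 and 4.53 against 5.34, 5.59 and 5.42 (1.80-fold higher, difference 0.85, SE 0.09, adjusted p = 0.000321). Slc29a1 (ENT1), whose E-box is shown above, read 7.12, 7.21 and 7.02 against 6.62, 6.59 and 6.51 (1.46-fold lower, difference -0.55, SE 0.07, adjusted p = 0.00103). The fall of Slc29a1 was not called after the bacterial scaling. Slc27a2, a fatty acid transport and activation protein of liver, read 13.56, 13.64 and 13.59 against 12.93, 12.91 and 12.97 (1.58-fold lower, difference -0.66, SE 0.06, adjusted p = 0.000175). The folate carrier Slc46a1 fell by 0.76 (SE 0.09, adjusted p = 0.000433), and the thiamine carrier Slc19a2 fell by 0.49 (SE 0.09, adjusted p = 0.00385). Slc27a2 and Slc46a1 stayed lower after the bacterial scaling. The urea carrier Slc14a1, known from red cells, rose by 0.35 (SE 0.09, adjusted p = 0.014) beside the red cell precursor markers, whose part was not tested, and was not called with the mean of its 2 probe sets (0.19, adjusted p = 0.113).

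Metal carriers comprised 26 genes, with both rises and falls in the zinc families. On the deposited scale 8 were lower (30.8%) and 5 higher (19.2%), beside 20.4% and 19.9% of all genes, and 1 and 12 after the bacterial scaling. Slc39 proteins bring zinc, and in some cases iron and manganese, into the cytosol. Most Slc30 proteins move zinc out of it, which is not assumed here for Slc30a9. Slc39a8 (ZIP8) read 9.98, 9.98 and 9.85 in wild type and 9.22, 9.11 and 9.30 in transgenic liver (1.65-fold lower, difference -0.72, SE 0.08, adjusted p = 0.000334). It is the metal carrier still lower after the bacterial scaling (-0.35). Slc39a14 (ZIP14), which takes up zinc, manganese and iron not bound to transferrin, read 10.48, 10.50 and 10.74 against 10.12, 9.90 and 9.91 (1.51-fold lower, difference -0.60, SE 0.10, adjusted p = 0.00263). Slc39a6 (ZIP6) read 7.03, 7.15 and 7.25 against 7.86, 7.84 and 7.90 (1.65-fold higher, difference 0.72, SE 0.08, adjusted p = 0.000299). The groups were apart in all 3, as the naming rule required. The second probe set of Slc39a6 was not called (adjusted p = 0.998), and that of Slc39a14 differed by -0.20 and was not called.

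The zinc exporter of the cell surface, Slc30a1, fell by 0.51 (SE 0.09, adjusted p = 0.00438), while Slc30a9 read 9.42, 9.50 and 9.47 against 10.11, 10.14 and 10.09 (1.56-fold higher, difference 0.65, SE 0.06, adjusted p = 0.000199). Slc39a4 (ZIP4) rose by 0.38 (SE 0.08, adjusted p = 0.00733) and the magnesium carrier Slc41a1 rose by 0.29 (SE 0.06, adjusted p = 0.00915). Slc31a1 (CTR1), the copper importer, fell by 0.46 (SE 0.09, adjusted p = 0.00442). Its second probe set differed by -0.04 and was not called, and the mean of both was -0.25. The iron importer Slc11a2 (DMT1) read 7.96, 7.34 and 7.55 against 7.28, 7.22 and 7.16, apart in the groups but not called (difference -0.40, adjusted p = 0.0661). Without wild type 2 it was called lower (-0.54, adjusted p = 0.0235), and likewise under quantile normalization, median centring and cyclic loess. The falls of Slc39a14, Slc30a1 and Slc31a1 were not called after the bacterial scaling.

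Of 14 measured genes of iron, zinc and copper handling, 5 were lower and 2 higher (3 and 6 after the bacterial scaling), and 4 were higher without wild type 1. Hamp, the liver hormone hepcidin that blocks iron export, read 5.06, 5.20 and 4.79 in wild type and 7.74, 9.23 and 8.70 in transgenic liver (difference 3.54, SE 0.33, adjusted p = 0.000175). The ferritin heavy chain Fth1 rose by 0.40 (SE 0.08, adjusted p = 0.00578). The metalloreductase Steap4 fell by 0.93 (SE 0.14, adjusted p = 0.00165), and Tfr2, the iron-sensing transferrin receptor, fell by 0.78 (SE 0.07, adjusted p = 0.000167).

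Bicarbonate carriers, 14 genes of families 4 and 26, exchange bicarbonate for chloride, sulfate or oxalate or carry it with sodium. Of these, 3 were higher (21.4%) and 2 lower (14.3%), beside 19.9% and 20.4% of all genes, and 7 and 0 after the bacterial scaling. Slc4a3 (AE3) read 5.90, 6.19 and 5.90 against 6.84, 6.74 and 6.82 (1.75-fold higher, difference 0.80, SE 0.10, adjusted p = 0.000517). Slc26a2, the sulfate carrier, read 6.65, 6.78 and 6.79 against 7.43, 7.54 and 7.49 (1.68-fold higher, difference 0.75, SE 0.07, adjusted p = 0.000186). Both were apart in the groups, as the naming rule required. Slc4a2 (AE2), which secretes bicarbonate into bile from the canalicular and duct side, read 7.95, 7.26 and 7.48 against 8.07, 8.09 and 8.21 (difference 0.56, SE 0.16, adjusted p = 0.0287). Its wild-type values were spread and the call was lost without wild type 2 (0.0753), wild type 3 (0.0788), transgenic 1 (0.0589), transgenic 2 (0.0651) or transgenic 3 (0.089).

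Slc26a6 fell by 0.58 (SE 0.11, adjusted p = 0.00502). Slc26a1, the sulfate and oxalate exchanger of the hepatocyte's blood side, read 9.33, 9.41 and 9.18 against 8.94, 9.02 and 9.03 and fell by 0.31 (SE 0.08, adjusted p = 0.0176). The Slc26a1 call was lost without wild type 2 (0.0594) or transgenic 1 (0.0557), which leaves 1 lower gene, and its difference was 0.07 after the bacterial scaling. Slc4a4, the sodium bicarbonate cotransporter, was not called (0.13, adjusted p = 0.275). Of 11 partners in bicarbonate and bile secretion, 6 were lower and 2 higher (3 and 3 after the bacterial scaling). The carbonic anhydrases Car5a and Car3 fell by 2.69 (SE 0.14, adjusted p = 1.46e-05) and 1.71 (SE 0.12, adjusted p = 5.02e-05). The count of 6 became 3 without wild type 1, wild type 2, transgenic 1 or transgenic 3. The 2 higher genes were the water channels Aqp8 (0.62) and Aqp1 (0.40). Aqp8 lost its call without wild type 3 (0.0649), transgenic 1 (0.0592), transgenic 2 (0.0646) or transgenic 3 (0.0574). Aqp1 lost it without wild type 2 (0.109), wild type 3 (0.103), transgenic 1 (0.0978), transgenic 2 (0.0737) or transgenic 3 (0.119).

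Bile duct cells also express Slc4a2 and Aqp1. Of their 8 measured markers 4 were higher and 1 lower (3 lower without wild type 3), and their summed level was 11.57 to 12.02 on wild-type and 11.60 to 12.01 on transgenic arrays. Epcam read 8.52, 7.23 and 6.88 against 9.59, 9.55 and 9.30, and Krt19 read 7.59, 7.47 and 6.09 against 6.96, 7.07 and 6.33. Wild type 1 was the highest wild-type array for Slc4a2 and Epcam. The part of bile duct cells in the bicarbonate carrier values was not tested.

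Among 22 carriers of inorganic cations, chloride and phosphate, 5 were lower (22.7%) and 3 higher (13.6%), beside 20.4% and 19.9% of all genes. After the bacterial scaling these counts were 0 and 9. Slc20a1 (PiT1), a sodium-phosphate importer, was the carrier that rose most. It read 9.13, 9.69 and 9.74 in wild type and 11.19, 11.34 and 11.38 in transgenic liver (3.44-fold higher, difference 1.78, SE 0.16, adjusted p = 0.000132). Its 2 probe sets rose by 1.78 and 1.94. Both E-boxes, in 1 of its 2 promoter windows, are shown above, and the related Slc20a2 differed by -0.15 and was not called. Slc34a2, a phosphate carrier of epithelia including bile ducts, read 7.47, 7.12 and 6.79 against 7.88, 7.85 and 7.90 (1.69-fold higher, difference 0.75, SE 0.15, adjusted p = 0.00665). Slc12a4 (KCC1), a potassium-chloride cotransporter that regulates cell volume, read 7.01, 7.06 and 7.07 against 7.89, 7.79 and 7.74 (1.69-fold higher, difference 0.76, SE 0.07, adjusted p = 0.000146). All 3 genes were apart in the groups on the deposited scale, as the naming rule required.

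**Figure D5:**
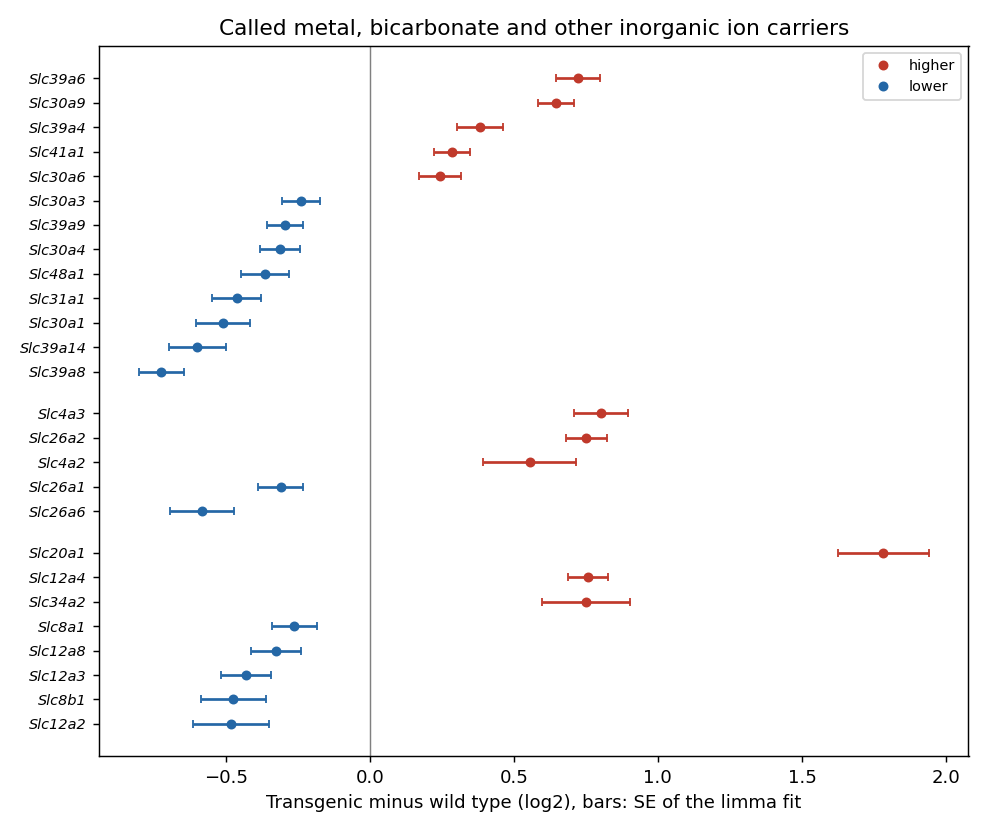
Differences between transgenic and wild-type liver (log2, deposited scale, 3 arrays per group) for the called metal carriers (top), bicarbonate carriers (middle) and other inorganic ion carriers (bottom), with bars for the SE of the limma fit; red is higher and blue lower. Slc20a1 at 1.78 stands apart from the rest, and of the blue genes Slc39a8 is the one still lower after scaling to bacterial controls.

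The falls in this class were smaller. Slc12a2 (NKCC1), the sodium-potassium-chloride cotransporter, read 8.74, 8.31 and 8.22 against 7.93, 7.89 and 8.01 (difference -0.48, SE 0.13, adjusted p = 0.0234). Its call was lost without transgenic 1 (0.0607), transgenic 2 (0.0714) or transgenic 3 (0.0504). Slc8b1, the sodium-calcium exchanger of mitochondria, fell by 0.47 (SE 0.11, adjusted p = 0.0132), and Slc12a3 fell by 0.43 (SE 0.09, adjusted p = 0.00665). Slc12a8 (-0.32) lost its call without wild type 2 (0.0501) or transgenic 3 (0.0547). The count of 5 lower genes became 3 without transgenic 1 or transgenic 2 and 2 without transgenic 3.

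The name rule also took 3 genes whose products are not carriers. The scaffolds Slc9a3r1 (NHERF1), which read 12.13, 11.81 and 11.78 against 11.44, 11.30 and 11.47 (difference -0.50, SE 0.11, adjusted p = 0.00893), and Slc9a3r2 (difference -0.33, adjusted p = 0.0164) fell, neither of them called after the bacterial scaling. Slc9a3r2 was also not called with the mean of its 6 probe sets (-0.12, adjusted p = 0.149). Slc4a1ap, an adaptor protein, was not called.

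Carriers of the lysosome membrane are the group closest to the best known targets of TFEB. Of 13 listed by hand, 8 were measured, and 2 were higher and 2 lower (3 and 1 after the bacterial scaling). Each count is 25% of the 8, beside 19.9% higher and 20.4% lower of all genes. The list does not hold every lysosomal carrier, and Slc66a1 is not on it. Slc15a4, which exports histidine and peptides from lysosomes, read 7.98, 8.08 and 8.04 in wild type and 8.13, 8.49 and 8.56 in transgenic liver (1.28-fold higher, difference 0.36, SE 0.12, adjusted p = 0.0404). The nucleoside exporter Slc29a3 (ENT3) read 7.16, 7.29 and 7.31 against 7.55, 7.46 and 7.62 (1.22-fold higher, difference 0.29, SE 0.07, adjusted p = 0.0182). Both rises were small. Slc15a4 lost its call without wild type 1 (0.0889), wild type 2 (0.0786), wild type 3 (0.0837), transgenic 2 (0.122) or transgenic 3 (0.124), and under quantile normalization, median centring and cyclic loess. Slc29a3 lost it without transgenic 3 (0.0633), where 0 of the list were higher, and under quantile normalization (0.0624), and its second probe set differed by -0.22. The mean of both was 0.03 and not called (adjusted p = 0.735).

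Slc46a3, a lysosomal carrier that releases steroid conjugates and drug metabolites, read 7.66, 7.35 and 7.25 against 6.42, 6.57 and 6.66 (1.83-fold lower, difference -0.87, SE 0.12, adjusted p = 0.000963), and stayed lower after the bacterial scaling. The heme carrier Slc48a1 fell by 0.36 (SE 0.08, adjusted p = 0.0111) on the deposited scale and differed by 0.02 after that scaling. Its second probe set differed by -0.095 and was not called. Slc11a1 (NRAMP1), the metal carrier of phagocyte lysosomes, read 7.53, 7.86 and 8.02 against 7.87, 7.66 and 7.68 and was not called, and neither were Slc15a3 (0.03), Slc30a2 (-0.26) and Slc11a2. Phagocytes are known to express Slc11a1 and Slc15a3. The summed level of the 7 macrophage markers was 13.76 to 14.12 on wild-type and 13.50 to 13.86 on transgenic arrays, and that of the 8 granulocyte markers was 13.44 to 14.57 and 11.36 to 12.54. Their part in these values was not tested.

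Read as a list of textbook liver carriers, 26 measured of 30, the counts were 13 lower and 3 higher (5 and 8 after the bacterial scaling), beside 20.4% and 19.9% of all genes. The median difference of the list was -0.28. The 3 higher were Slc20a1, Slc4a2 and Slc22a5, of which Slc20a1 alone was left without transgenic 3. The 5 lower on both scales were Slco1a4, Slc37a4, Slc38a3, Slc47a1 and Slc27a2. The list was chosen with earlier results of these livers known.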

How the data were processed

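RNA of 6 whole livers at postnatal day 9 was hybridised to Affymetrix arrays. The authors deposited log2 expression per probe set, obtained with RMA in affy (per the submitters' processing notes, with no version given). RMA makes the arrays' distributions alike, so a shift in all genes cannot be seen on this scale. The number of arrays limits the precision.

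Gene names are those of the platform annotation, in which 20380 of 22690 probe sets have 1 gene, 691 several, 1555 none, and 64 are controls. The probe set with the highest mean stood for a gene, 12393 genes in all. Both groups entered 1 fit in limma 3.58.1 (R 4.3.3) without covariates, p-values were adjusted by Benjamini and Hochberg's method over every gene, and 0.05 was the threshold. With 3 arrays a group, exact permutation cannot give p under 0.1 and was not used. The fit was tested on simulated data. Python 3.11.15 with pandas 2.3.3 and matplotlib 3.10.9 gave tables and figures.

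Members, substrate classes, lists and markers were chosen with earlier results of these data known. Slc4a1ap was moved to the genes that are not carriers after the values were seen. Named were up to 4 called rises and 4 called falls per class with groups apart, the textbook and lysosomal carriers, and up to 2 called genes each way of the other lists. Other named genes, among them Slc7a9, Slc16a6, Slc44a3 and the holders of E-boxes, were chosen after their values were seen. Promoters and gene order are RefSeq's (GRCm38.p6), and gene coordinates are not given because the platform annotation names no build. Alternatives were other probe set rules, normalizations, fits and leaving out each array.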

Additional observations from a re-analysis of the deposited data

How the results depend on the processing

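Without 1 array at a time, the carriers called higher numbered 29 to 36 and those called lower 56 to 61, against 37 and 64 with all arrays. Scaling to the bacterial hybridisation controls gave 100 higher and 23 lower, or 81.3% of calls higher against 36.6%, where over all genes these shares were 91.7% and 49.4%. Median centring gave 32 and 86 (27.1% higher, beside 35.2% over all genes). The other alternatives gave 29 to 39 higher and 53 to 69 lower. Same-numbered wild-type and transgenic arrays did not deviate together (correlations -0.10, -0.02 and 0.06), so the numbers pair no samples, and a replicate block gave 34 higher and 56 lower. Under the bacterial scaling, which moves all genes up, the difference turned positive in 114 carriers, 23 of them called lower on the deposited scale. Among the carriers named by rule these were Slc11a1 (0.31), Slc12a8 (0.055), Slc1a2 (0.18), Slc26a1 (0.07), Slc2a2 (0.14), Slc30a2 (0.12), Slc33a1 (0.03), Slc35e4 (0.043), Slc38a2 (0.25), Slc38a4 (0.023), Slc48a1 (0.017), Slc7a11 (0.33), Slc7a13 (0.023), Slc7a5 (0.34), Slc9a3r2 (0.051) and Slco1a1 (0.27). Under the other alternatives, Slc6a6 was the called gene among the carriers named by rule that turned (-0.048 without probe sets ending in _s_at, _x_at or _a_at). Slc15a3 was -0.044 under quantile normalization, -0.04 under median centring, -0.036 under cyclic loess and -0.043 with array weights. Slc2a1 was -0.016 with array weights, Slc7a11 was 0.064 under quantile normalization and 0.058 under cyclic loess, and Slco1a1 was 0.006 under quantile normalization. With single arrays left out, differences ranged from -0.204 to 0.044 for Slc11a1, -0.097 to 0.136 for Slc15a3, -0.104 to 0.298 for Slc2a1, -0.208 to 0.004 for Slc38a2, -0.109 to 0.008 for Slc7a11 and -0.102 to 0.023 for Slc7a5. The causes of these turns were not tested. When the dimmest 40% of genes were dropped, 127 carriers were left, 29 higher and 54 lower. Among the named carriers dropped as dim were Slc12a3, Slc12a8, Slc14a1, Slc1a2, Slc23a3, Slc29a2, Slc30a2, Slc35e4 and Slc38a5. Slc41a1, Slc4a3, Slc5a2, Slc6a20b, Slc7a11, Slc7a13, Slc7a6 and Slco1a1 were dropped as well.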

Other observations

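Single arrays stood apart from both others of their group, by at least 1 on the log2 scale, in few carriers. Wild type 1 did so in 72 of all genes (0.58%) and in 2 carriers, Slc7a9 and Slc5a1. Slc7a9 read 6.80 there and 4.74 and 4.34 on the other wild-type arrays, and Slc5a1 (SGLT1) read 5.87 there and 4.20 and 4.04 on the others, with the transgenic arrays at 4.27, 4.24 and 4.26. Of the 8 bile duct markers, Cftr and Epcam also stood this far above the other wild-type arrays on wild type 1, and the rest did not. The part of bile duct cells in these values was not tested. Transgenic 2 stood apart in 1 carrier, the peptide carrier Slc15a2. The male transgenic 1 stood apart in 27 genes and in 0 carriers.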
